A study of Homo sapiens with 8 samples.

Results

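The genes described here encode 46 factors that process the precursor of small-subunit ribosomal RNA, drawn from a named list of small-subunit processome and 40S maturation factors. Each of the 46 symbols matched a single Ensembl identifier among the 58395 listed per library, and all 46 had reads in every library and passed the filter on low counts, which left 16503 genes. By role they are 6 genes of the UTP-A subcomplex, 6 of the UTP-B subcomplex, 5 of the U3 particle and MPP10 group, 2 UTP-C homologs, 6 helicases and enzymes, 13 other processome factors and 8 factors of later 40S maturation and export.

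The small-subunit processome is the large particle that forms on the nascent ribosomal RNA precursor in the nucleolus. UTP-A binds the leader of the transcript first, UTP-B and the U3 small nucleolar ribonucleoprotein follow, and U3 pairs with the precursor to guide its folding and cleavage. Helicases then release U3, and a second set of factors escorts the pre-40S particle to the cytoplasm, where the final cut gives mature 18S rRNA. Fibrillarin, the product of FBL, is the RNA 2′-O-methyltransferase of the U3 particle and of the other box C/D particles. The factors themselves are proteins, so what was measured here is their mRNA, in total lysate and on the polysomes that translate it.

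The cells were OCI-AML3, an established line from acute myeloid leukaemia, infected with lentiviral vectors carrying a control short hairpin (shCT) or one against FBL (shFBL). After 15 min with cycloheximide (100 µg/mL), which holds ribosomes on mRNA, cells were lysed. Of each lysate, 100 µL gave input RNA and 290 µL went onto a sucrose gradient of 10% to 50%, from which polysome RNA was taken; the fractions pooled as polysomes are not given in the sources. Titles call a library CT where the genotype label is WT and U where it is FBL knockdown, and add a number, 1 or 2. This gave 4 groups of 2 libraries: input CT, input U, polysome CT and polysome U. No label says whether numbers 1 and 2 were separate cultures or infections. The p-values therefore rest on the spread of these libraries alone, part of which may be technical. In bulk RNA, fewer cells with a transcript and less of it per cell cannot be told apart, and all levels are relative to the other transcripts of a library.

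FBL itself did not follow the labels. Its level was 250.0 CPM (counts scaled to a common library total after TMM) in input CT 1 and 252.7 CPM in input U 1, but 88.1 CPM in input CT 2 and 84.2 CPM in input U 2. On polysomes it was 498 and 499 CPM in CT 1 and U 1, against 163 and 165 CPM in CT 2 and U 2. The log2 fold change of U against CT was -0.01 in input (SE 0.69, adjusted p = 1, edgeR) and 0.01 on polysomes (SE 0.69, adjusted p = 1). That of number 2 against number 1 was -1.55 in input (SE 0.13, adjusted p = 0.00369) and -1.60 on polysomes (SE 0.13, adjusted p = 0.00264). The targeted gene therefore did not separate the labels, and below "libraries labelled U" and "libraries labelled CT" mean the titles only. The title numbers are not a treatment in the labels.

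Gene counts ranged from 22.2 mega-counts in polysome U 2 to 43.1 mega-counts in input U 2, and mitochondrial rRNA made up 0.0426% to 0.102% of polysome counts against 1.25% to 1.52% in input. All 12 myeloid markers averaged over 1 CPM, summing to 2568 to 2994 CPM in input and 3663 to 3928 CPM on polysomes, most of it SPI1, ELANE and PRTN3. MPO was low, at a mean of 1.39 CPM in input and 0 counts in polysome U 2. The lymphoid marker NKG7 averaged 2.74 CPM in input. Erythroid and megakaryocyte markers summed to 1.31 to 7.04 CPM, with GATA1 and PF4 at 0 counts in every library. Lymphoid markers summed to 3.11 to 8.25 CPM, with CD3D, CD3E, MS4A1 and CD2 at 0. Epithelial and stromal markers summed to 39.3 to 73.2 CPM, most of it PECAM1, with EPCAM and CDH1 at 0.

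Values of a fraction are given below in the order CT 1, CT 2, U 1 and U 2. The members' summed level was 3060, 2826, 2744 and 2542 CPM in input and 4461, 4195, 3872 and 3592 CPM on polysomes. In both fractions the sum was higher in both libraries labelled CT than in both labelled U, and higher in number 1 than in number 2 within each label. A sum is weighted to the most abundant members: RRP7A alone held 887, 789, 753 and 599.5 CPM of those on polysomes. Each member was a minor transcript: single values ran from 3.73 to 376 CPM in input and from 3.90 to 887 CPM on polysomes. The coefficient of variation over the 4 libraries of a fraction had a median of 11.4% in input, from 1.54% for UTP6 to 26.5% for PWP2. On polysomes the median was 16.7%, from 1.52% for TBL3 to 91.4% for PWP2, whose 4 polysome values were 27.6, 5.24, 3.90 and 10.9 CPM.

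**Figure D1:**
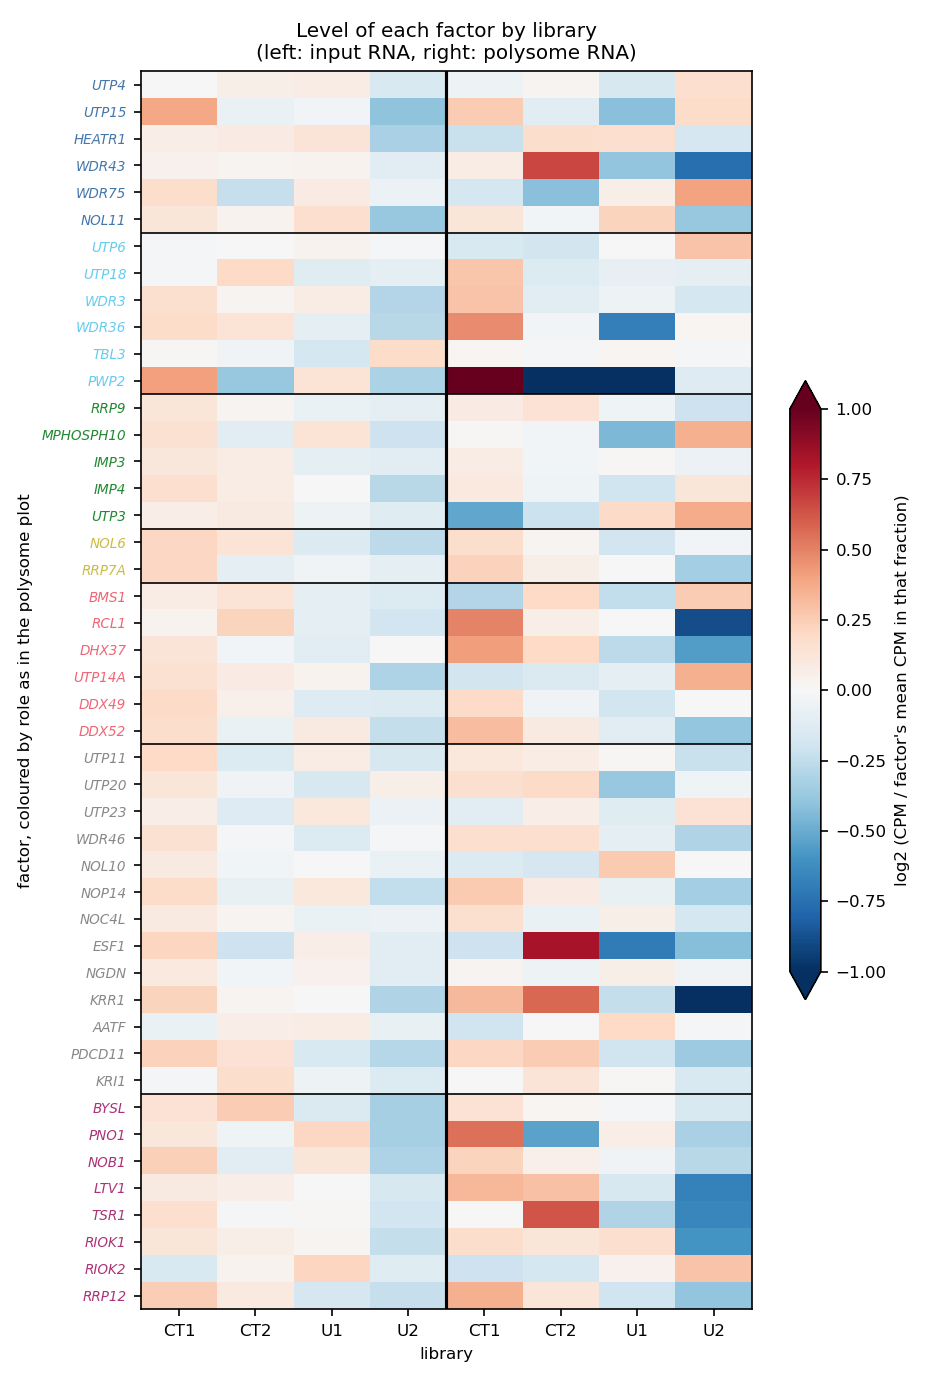
Level of each of the 46 members (rows, by role) in each of the 8 libraries (columns), as log2 of CPM against the gene's own mean over the 4 libraries of that fraction, with the colour scale capped at 1 in either direction. On polysomes KRR1, WDR43 and DHX37 are above their mean in both libraries labelled CT and below it in both labelled U, UTP3 shows the reverse, and PWP2 is above its mean in CT 1 alone.

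Levels were also compared per kilobase of exon, with the exons of all annotated transcripts of a gene merged. This adjusts for length only in part, since merged exons can exceed a transcript. In PWP2 they cover 6922 bases, against 3297 in its transcript with the longest coding part. By this measure the members spanned a wide range in input. IMP3, which with IMP4 and MPHOSPH10 joins U3 to the precursor, was at 91.6 ± 7.16 CPM per kb (mean ± SD, n = 4). RRP7A, the homolog of yeast Rrp7 in the UTP-C complex, was at 79.9 ± 8.31 CPM per kb, and NOC4L, which partners NOP14, at 53.0 ± 2.79 CPM per kb. IMP3 and RRP7A differed by less than 2 of their SDs, while NOC4L lay below both in every library. Exon overlaps of IMP3 with neighbouring genes, added over those genes, came to 59.3% of its exon bases, so its level is uncertain. WDR46 followed at 49.6 ± 4.19 CPM per kb, below NOC4L in every library, though their spreads overlapped. At the other end were HEATR1, the largest UTP-A subunit, at 1.40 ± 0.190 CPM per kb, UTP20, a long scaffold protein, at 0.882 ± 0.0740 and PWP2, a UTP-B subunit, at 0.701 ± 0.186. Spreads of UTP20 and PWP2 overlapped, and HEATR1 was above both by this measure. The order of these genes can change with the length used. In input, UTP20 stood at 9.64, 8.62, 7.92 and 9.19 CPM and HEATR1 at 13.3, 13.5, 13.9 and 10.2 CPM.

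Polysome RNA was compared with input RNA over the 4 lysates, which asks which of these mRNAs were over- or under-represented in the polysome fractions. Of the 46 members, 27 (58.7%) were called at an adjusted p below 0.05 over all genes tested, 15 of them higher on polysomes and 12 lower. Calls took up 42.9% of all genes tested, 20.0% higher and 22.8% lower. All genes tested include some with few reads, whereas no member had under 87 reads in any library. The shares were not compared at like read depth. With each library's trend on GC content and length removed, as set out further on, the split was 19 members higher and 3 lower. That fit called 27.4% of all genes, 13.1% higher and 14.2% lower. The members' median log2 fold change was 0.12, against -0.22 over all genes tested. The members thus split in both directions, from RRP9 at 1.21 to LTV1 at -1.76. Of the 46, 19 were higher on polysomes in all 4 lysates, 12 were lower in all 4, and 15 changed sign between lysates. That count was not made over all genes. Every polysome value lay above every input value in 16 members (34.8%), against 17.7% of all genes tested. Every polysome value lay below in 7 members (15.2%), against 22.7% of all genes tested. The 5 calls of UTP18, RIOK1, RIOK2, KRR1 and WDR75 were all lost without input CT 1 or without input U 1, which left 22, and some of them without other single libraries. Median log2 ratios of polysome to input over the members were 0.04, 0.09, -0.02 and 0.18 in the lysates CT 1, CT 2, U 1 and U 2.

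Some members at the 2 ends also differed in the share of codons ending in G or C. Stretches of 30 codons from the middle of the coding region are given for some of them. The sequences are from GENCODE v29 transcripts on GRCh38, read 5′ to 3′ from the first base of a codon, with capitals marking each G or C at the third codon position. RRP9 and RRP7A are the highest in polysome over input, and LTV1 and ESF1 are among the lowest.
RRP9: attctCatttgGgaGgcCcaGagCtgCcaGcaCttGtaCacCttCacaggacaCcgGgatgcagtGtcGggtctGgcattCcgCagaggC
RRP7A: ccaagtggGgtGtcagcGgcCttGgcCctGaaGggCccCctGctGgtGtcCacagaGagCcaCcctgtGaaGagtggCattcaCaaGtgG
LTV1: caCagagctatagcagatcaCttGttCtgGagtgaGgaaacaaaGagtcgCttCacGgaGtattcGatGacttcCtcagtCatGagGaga
ESF1: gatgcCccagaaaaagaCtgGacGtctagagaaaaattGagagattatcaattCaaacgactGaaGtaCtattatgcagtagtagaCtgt
The stretches run from codon 223 to 252 in RRP9, 126 to 155 in RRP7A, 223 to 252 in LTV1 and 411 to 440 in ESF1. Of the 30 codons, 21 end in G or C in RRP9, 23 in RRP7A, 17 in LTV1 and 10 in ESF1. The stretches of RRP9, RRP7A and ESF1 are close to their whole coding regions, while that of LTV1 is richer. Over the whole coding region the share is 72.6% in RRP9, 75.4% in RRP7A, 37.7% in LTV1 and 32.9% in ESF1. The contrast is weaker in UTP23, UTP3 and UTP11, also among the 5 lowest called, at 46.2%, 47.0% and 45.1%. UTP18, which was called higher, is at 45.5%. In the middle stretch of UTP3, 19 of 30 codons end in G or C.

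The 5 members of the U3 particle and MPP10 group held 3 calls higher and 2 lower. RRP9 (ENSG00000114767, chromosome 3: 51933430 to 51941941, minus strand, GRCh38), the U3-specific protein, was at 71.9, 67.5, 63.0 and 62.1 CPM in input and 162, 169, 148 and 132 CPM on polysomes. Every polysome value was above every input value, and the log2 fold change was 1.21 (adjusted p = 2.72e-06, SE 0.08). IMP3, at 0.70 (adjusted p = 1.66e-05, SE 0.06), and IMP4, at 0.70 (adjusted p = 0.000381, SE 0.10), were also higher on polysomes. MPHOSPH10, the scaffold of the same trimer, was lower at -0.82 (adjusted p = 0.00295, SE 0.17). UTP3 (ENSG00000132467, chromosome 4: 70688479 to 70690551, plus strand), a binding partner of that group, was at 48.2, 49.0, 44.4 and 42.2 CPM in input and 16.2, 20.0, 26.6 and 30.1 CPM on polysomes. Its fractions did not overlap, and its log2 fold change was -1.02 (adjusted p = 8.24e-05, SE 0.12).

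Both UTP-C homologs were higher. RRP7A (ENSG00000189306, chromosome 22: 42509968 to 42519802, minus strand) was at 376, 306, 318 and 305 CPM in input and 887, 789, 753 and 599.5 CPM on polysomes. All its polysome values were above its input values, with a log2 fold change of 1.21 (adjusted p = 7.61e-06, SE 0.10). NOL6, the homolog of yeast Utp22, was at 64.3, 61.5, 50.9 and 46.7 CPM in input and 113, 102, 87.3 and 98.0 CPM on polysomes, and its log2 fold change was 0.85 (SE 0.09).

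Among the 6 helicases and enzymes, 2 were higher and 1 was lower. DHX37 (ENSG00000150990, chromosome 12: 124946825 to 124989122, minus strand), the helicase that releases U3, was at 62.4, 56.0, 52.6 and 56.9 CPM in input and 166, 143, 104 and 84.3 CPM on polysomes, and its log2 fold change was 1.08 (adjusted p = 1.91e-05, SE 0.10). Its ratio of polysome to input was smaller in the lysates labelled U, at log2 values of 1.41, 1.35, 0.98 and 0.57. DDX49, a DEAD-box helicase, was higher at 0.74 (SE 0.11), and DDX52, another, was lower at -0.56 (SE 0.13). UTP14A, the cofactor of DHX37, did not pass the test at 0.13 (adjusted p = 0.485, SE 0.14), nor did the GTPase BMS1 at -0.11 (adjusted p = 0.542, SE 0.14) and its partner RCL1 at 0.21 (adjusted p = 0.436, SE 0.20). GENCODE v29 names 20 pseudogenes after BMS1, so its counts are uncertain.

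UTP-A, which initiates assembly, held no call higher and 1 lower, WDR75 at -0.38 (adjusted p = 0.0396, SE 0.13). UTP4, UTP15, WDR43 and NOL11 gave log2 values of -0.24, -0.28, -0.23 and -0.20, and HEATR1 gave 0.17; none of these passed the test. With the trend on GC content and length removed, as set out further on, WDR75, HEATR1, WDR43 and NOL11 were called higher. UTP4 and UTP15 were not called in that fit. In UTP-B, 2 members were higher and 1 lower. TBL3 (ENSG00000183751, chromosome 16: 1972037 to 1982933, plus strand) was at 77.0, 74.4, 67.7 and 86.6 CPM in input and 154, 150.2, 154 and 150 CPM on polysomes. Its polysome values were close together and all above input, with a log2 fold change of 0.99 (adjusted p = 1.80e-05, SE 0.09); 29.9% of its exon bases overlap NOXO1. UTP18 was also higher, at 0.38 (adjusted p = 0.0242, SE 0.12), and WDR36 was lower, at -0.72 (adjusted p = 0.00786, SE 0.18). PWP2 had a large estimate that did not pass the test, 1.18 (adjusted p = 0.0831, SE 0.50), with log2 ratios in the 4 lysates of 2.10, 0.49, -0.45 and 1.48.

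The 13 other processome factors divided evenly, with 4 higher and 4 lower. NOC4L was higher on polysomes at 0.89 (SE 0.09), and so was WDR46, the homolog of yeast Utp7, at 0.90 (SE 0.08). PDCD11, an RNA-binding protein that acts on both subunits, was higher at 0.88 (SE 0.08), and AATF at 0.65 (SE 0.09). UTP23 (ENSG00000147679, chromosome 8: 116766503 to 116849463, plus strand), a protein with a PIN domain, was at 28.4, 24.9, 29.2 and 26.1 CPM in input and 11.7, 13.2, 11.6 and 13.9 CPM on polysomes. All its polysome values were under its input values, with a log2 fold change of -1.11 (adjusted p = 0.000185, SE 0.15). UTP11 (ENSG00000183520, chromosome 1: 38009258 to 38024824, plus strand) went from 63.8, 50.4, 58.3 and 49.6 CPM in input to 31.5, 30.8, 29.5 and 25.03 CPM on polysomes, a log2 fold change of -0.93 (adjusted p = 0.000186, SE 0.12). ESF1 (ENSG00000089048, chromosome 20: 13714322 to 13784886, minus strand) had input values of 30.1, 22.6, 27.2 and 24.2 CPM and polysome values of 11.8, 24.1, 8.36 and 10.1 CPM. Here polysome CT 2 lay among the input values, and the log2 fold change was -1.02 (adjusted p = 0.00454, SE 0.23). The KH-domain protein KRR1 was lower at -0.81 (adjusted p = 0.0178, SE 0.23). AATF works in a complex with NGDN and NOL10, and these did not pass the test at 0.11 (adjusted p = 0.46, SE 0.12) and -0.29 (adjusted p = 0.0681, SE 0.11).

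Factors of the pre-40S particle held 2 calls higher and 3 lower of 8. LTV1 (ENSG00000135521, chromosome 6: 143843344 to 143863812, plus strand), an adaptor that leaves the particle before it matures, was at 40.4, 39.7, 37.9 and 33.9 CPM in input and 14.5, 14.1, 10.3 and 7.19 CPM on polysomes. The fractions were far apart in every lysate, with log2 ratios of -1.48, -1.49, -1.88 and -2.24 and a log2 fold change of -1.76 (adjusted p = 1.07e-05, SE 0.15). In the annotation, exon overlaps of LTV1 with other genes, added over those genes, came to 34.8% of its exon bases. BYSL (ENSG00000112578, chromosome 6: 41921188 to 41933046, plus strand), the homolog of yeast Enp1, was at 55.5, 60.1, 45.6 and 40.1 CPM in input and 110.4, 101, 98.2 and 89.6 CPM on polysomes. All its polysome values were above its input values, with a log2 fold change of 1.00 (adjusted p = 1.82e-05, SE 0.09). RRP12, an export factor, was higher at 0.77 (SE 0.09). The kinases of late release steps were lower, RIOK1 at -0.51 (SE 0.17) and RIOK2 at -0.48 (SE 0.14). NOB1, the endonuclease of the final cut, and its partner PNO1 did not pass the test, at 0.04 (adjusted p = 0.832, SE 0.14) and -0.29 (adjusted p = 0.373, SE 0.25), and neither did TSR1 at 0.03 (adjusted p = 0.904, SE 0.17).

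**Figure D2:**
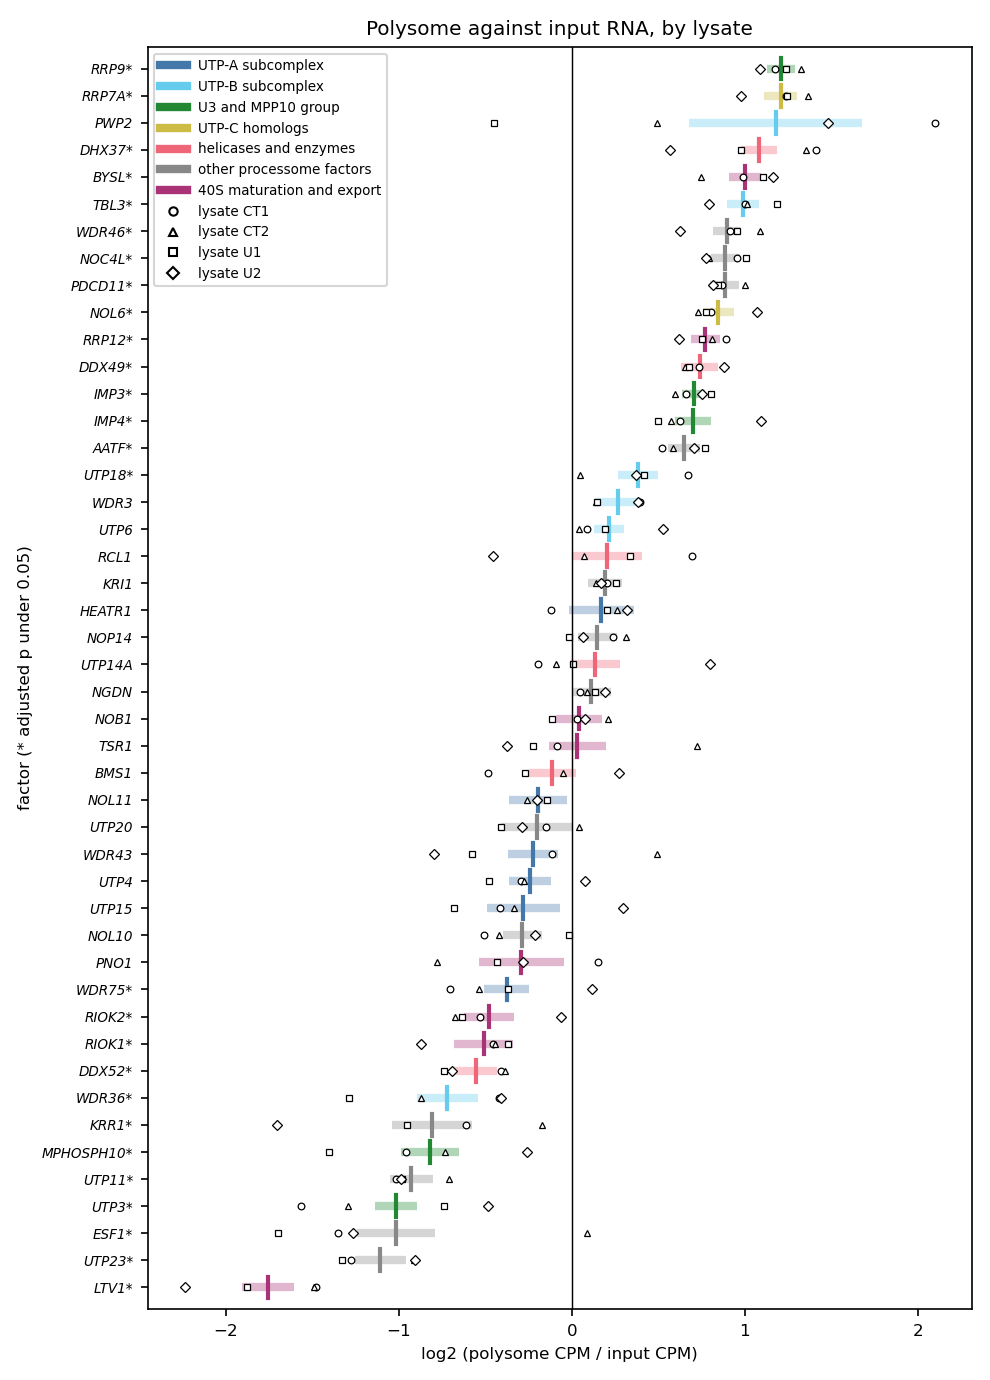
Log2 ratio of polysome to input CPM for each member (rows, ordered by value and coloured by role), with 1 open point per lysate (CT 1, CT 2, U 1 and U 2), a coloured tick for the fitted log2 fold change, a pale bar for its SE on either side and an asterisk for members called; 0 marks equal levels. RRP9, RRP7A, DHX37, BYSL and TBL3 lie above 0 and LTV1, UTP23, UTP3 and UTP11 below 0 in all 4 lysates, and the points of PWP2 are the most spread.

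The split of the members went with base composition. Of coding codons, a median of 73.5% (45.5% to 87.0%) ended in G or C in the 15 members called higher and 36.9% (32.8% to 47.0%) in the 12 called lower, against 48.1% in the 19 not called. Over all protein-coding genes tested the medians were 72.7% for genes called higher and 43.4% for genes called lower. Across the 46 members the log2 fold change and this share had a Pearson r of 0.80 and a Spearman rho of 0.79. Across 13080 protein-coding genes r was 0.34 and rho 0.50. GC content of the coding region gave r of 0.82 and rho of 0.82 across members, and 0.35 and 0.51 across those genes. GC content of the whole transcript gave 0.83 and 0.82 across members, and 0.39 and 0.57 across those genes. Whether codon endings matter apart from GC content as a whole was not tested. These correlations are across genes, which are not independent replicates and share the 8 libraries, and they are given as descriptions. Read depth was not matched between the members and all protein-coding genes. Members with under 40% of codons ending in G or C held 0 calls higher and 8 lower of 10. All protein-coding genes in that range had 1.54% higher and 56.5% lower. Members at 70% or more held 9 higher and 0 lower of 11, where all protein-coding genes had 43.5% higher and 6.03% lower. Coding length went less with the fold change, with r of 0.12 on the log2 scale.

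A trend of each library on GC content and length, estimated over 16477 genes, was then removed in a fit added after the data were seen. It called 22 members, 19 higher and 3 lower, of which 17 had been called before, 2 of them in the other direction. With the lysate as a block as well it called the same 22, and 30.1% of all genes, 14.7% higher and 15.4% lower. The 3 lower were LTV1 at -1.14 (SE 0.16, adjusted p = 3.68e-05), UTP3 at -0.61 (SE 0.16, adjusted p = 0.00699) and UTP11 at -0.38 (SE 0.11, adjusted p = 0.0139) in that fit with the lysate as a block. RRP9 was at 0.64 (SE 0.08, adjusted p = 7.47e-06), RRP7A at 0.76 (SE 0.06, adjusted p = 1.00e-07) and DHX37 at 0.48 (SE 0.10, adjusted p = 0.00146). ESF1, MPHOSPH10, UTP23, KRR1, WDR36, DDX52 and RIOK1 lost their calls among the lower, with ESF1 at -0.02 (SE 0.23, adjusted p = 0.966), a value that was 0.04 without the block. DDX49, IMP4 and NOC4L lost theirs among the higher. WDR75 and RIOK2 changed from lower to higher, at 0.42 (SE 0.12, adjusted p = 0.0171) and 0.48 (SE 0.16, adjusted p = 0.0342). WDR3, UTP6, HEATR1, NOL11 and WDR43 were called higher only with the trend removed. Whether the trend arises in library preparation or on the ribosome was not tested.

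**Figure D3:**
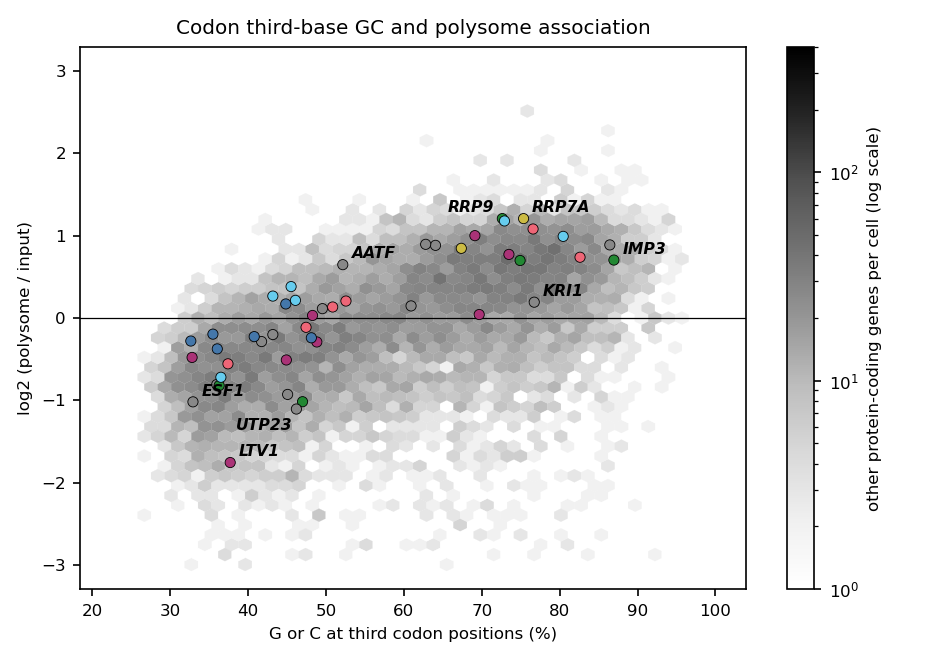
Log2 fold change of polysome against input (vertical) by the percent of codons ending in G or C (horizontal), for the 46 members as coloured points (colours by role as in the plot of log2 ratios by lysate) and for other protein-coding genes as grey cells shaded by number on a log scale; genes beyond the axis are not drawn. Members at 70% or more all lie above 0 and those under 40% all lie below 0.

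Beyond the 46 members, 23 other small-subunit factors were all tested, and 15 of them (65.2%) were called between polysome and input, 10 higher and 5 lower, with a median of 0.29. Over all genes the shares were 42.9% called, 20.0% higher and 22.8% lower, and the median was -0.22. SLX9 was at 95.6, 99.3, 88.4 and 110.4 CPM in input and 278, 268, 188 and 188 CPM on polysomes, a log2 fold change of 1.20 (adjusted p = 3.95e-06, SE 0.09). TRMT112, the activator of the 18S rRNA methyltransferase BUD23 and of other methyltransferases, gave 1.16 (adjusted p = 2.46e-06, SE 0.07). TSR3, which modifies 18S rRNA late in maturation, gave 1.12 (adjusted p = 5.47e-06, SE 0.08), and NOP9 gave 1.08 (adjusted p = 6.75e-06, SE 0.08). The lowest was NOP58, a core protein of box C/D particles beside fibrillarin, at 208, 184, 169 and 148 CPM in input and 60.6, 127, 49.4 and 67.8 CPM on polysomes, a log2 fold change of -1.25 (adjusted p = 0.000662, SE 0.20). DIMT1, an 18S rRNA dimethyltransferase, gave -1.23 (adjusted p = 0.000391, SE 0.18), AK6 gave -1.10 (adjusted p = 0.00159, SE 0.20) and C1orf131 gave -0.94 (adjusted p = 0.000116, SE 0.12). None of the 23 was called for U against CT or for number 2 against 1, in input, on polysomes or in the change between them. At an unadjusted p under 0.05 there were 0 of 23 in input and 5 of 23 on polysomes for U against CT, against 4.51% and 18.1% of all genes.

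Input RNA of libraries labelled U was then compared with that of libraries labelled CT. No member was called by edgeR, with a smallest adjusted p of 0.811, and 0% of all genes tested were called. At an unadjusted p under 0.05 there were 4 members, BYSL, PDCD11, RRP12 and NOL6, and 4.51% of all genes. DESeq2 called 1 member, PDCD11, and 0.461% of all genes. The members' median log2 fold change was -0.15, against 0.00 over all genes tested, and 40 of 46 estimates were below 0, against 8186 of 16503 genes. The members share the same libraries, so their signs are not independent of each other and are given as a description. In 20 members (43.5%) both libraries labelled U lay under both labelled CT, and in 0 did they lie above. Among all genes tested 20.3% lay under and 21.1% above. The summed level of myeloid markers went the other way without overlap, at 2568 to 2734 CPM in input CT and 2906 to 2994 CPM in input U. Single markers did not all move with the sum. SPI1, PRTN3 and FCER1G were higher in both input libraries labelled U, but ELANE was lower, at 759, 782, 684 and 693 CPM. The part of these markers in the members' values was not tested.

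The lowest estimates in that comparison were BYSL, PDCD11 and UTP15. BYSL was at 55.5, 60.1, 45.6 and 40.1 CPM, a log2 fold change of -0.43 (adjusted p = 0.816, SE 0.13). PDCD11 (ENSG00000148843, chromosome 10: 103396626 to 103446292, plus strand) was at 89.4, 84.2, 68.7 and 62.4 CPM, a log2 fold change of -0.41 (adjusted p = 0.811, SE 0.12). In both genes the labels did not overlap. UTP15, of UTP-A, was at 19.7, 14.4, 14.8 and 11.4 CPM, with U 1 inside the CT range and a log2 fold change of -0.38 (adjusted p = 1, SE 0.30). The highest estimates were small: RIOK2, at 22.6, 25.7, 29.04 and 23.0 CPM, gave 0.11 (SE 0.20). UTP23 gave 0.05 (SE 0.20) and TBL3 gave 0.03 (SE 0.13), from the values above, and their labels overlapped.

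**Figure D4:**
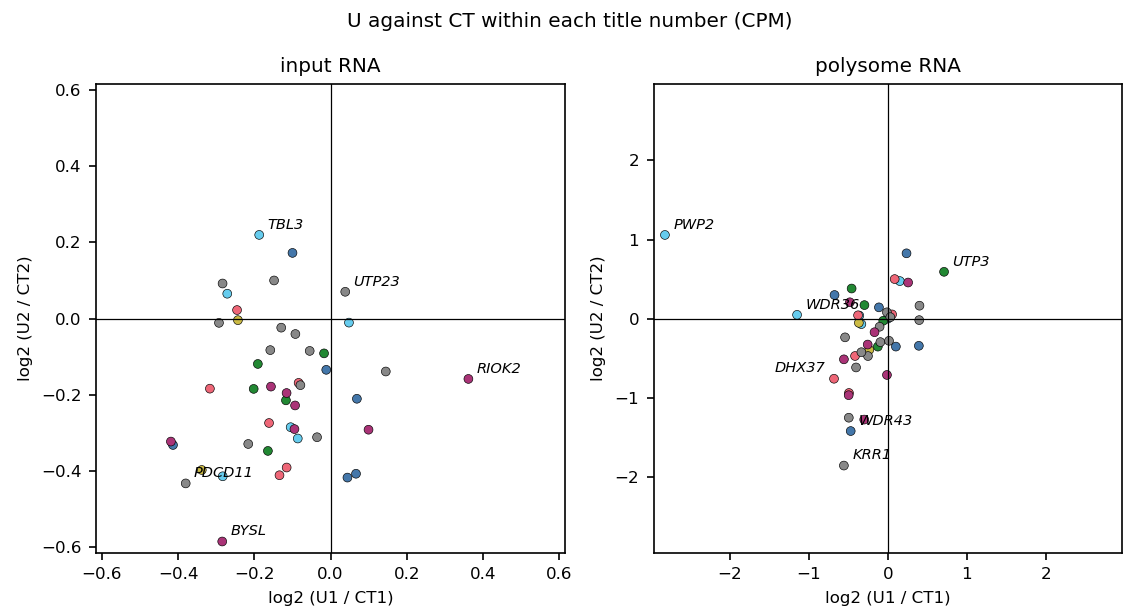
Log2 ratio of U to CT for each member within number 1 (horizontal) and within number 2 (vertical), in input (left) and on polysomes (right, wider axes), with colours by role as in the plot of log2 ratios by lysate. Most input points lie in the lower left, BYSL lowest, while on polysomes PWP2 is low in number 1 alone, KRR1 and WDR43 are low in both and UTP3 is above 0 in both.

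On polysomes no member was called for U against CT either, although 16 reached an unadjusted p under 0.05, as did 18.1% of all genes tested. DESeq2 called 7 members, 1 higher and 6 lower, and 7.29% of all genes, 3.08% higher and 4.21% lower. The edgeR calls took up 0.879% of all genes tested, 41 genes higher (0.248%) and 104 lower (0.63%). The median log2 fold change of members was -0.18, against -0.06 over all genes tested. In 19 members (41.3%) both libraries labelled U lay under both labelled CT, and in 6 (13.0%) above, where all genes gave 23.6% and 15.4%. Myeloid marker sums overlapped there, at 3663 to 3801 CPM in CT and 3788 to 3928 CPM in U. The low sums of lymphoid markers did not, at 3.11 to 4.11 CPM and 6.08 to 8.25 CPM, nor those of erythroid and megakaryocyte markers, at 1.79 to 3.53 CPM and 4.60 to 7.04 CPM. Their part in the members' values was not tested. The 6 members above were NOL10, RIOK2, UTP14A, UTP3, UTP6 and WDR75. The calls depended on single libraries. Without polysome U 1, 9 members were called, and without any other single library 0 were. The count over all genes, 145, became 1322 without polysome U 1 and 41 without polysome CT 1. It was 5 without polysome U 2, 1 without either input CT library, and 0 without polysome CT 2 or either input U library.

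KRR1 had the lowest estimate after PWP2, with polysome values of 12.8, 15.2, 8.69 and 4.20 CPM and a log2 fold change of -1.11 (adjusted p = 0.132, SE 0.33). WDR43 (ENSG00000163811, chromosome 2: 28894643 to 28948222, plus strand), of UTP-A, was at 50.0, 75.5, 36.1 and 28.1 CPM, a log2 fold change of -0.96 (adjusted p = 0.0615, SE 0.21), while its input values of 54.2, 53.6, 53.8 and 48.8 CPM were closer together. In both genes the labels did not overlap on polysomes. PWP2 had a log2 fold change of -1.16 (adjusted p = 0.397, SE 0.70), with CT 1 well above the other 3 values. UTP3 was the highest at 0.64 (adjusted p = 0.0973, SE 0.17), with both U values above both CT values. WDR75, of UTP-A, at 45.1, 38.0, 53.1 and 67.4 CPM, gave 0.53 (adjusted p = 0.174, SE 0.18). RIOK2, at 15.7, 16.1, 18.7 and 22.0 CPM, gave 0.36 (adjusted p = 0.374, SE 0.21). The smallest adjusted p belonged to DHX37, chosen here after its values were seen, at -0.72 (adjusted p = 0.0509, SE 0.14). PDCD11 at -0.51 (adjusted p = 0.0704, SE 0.12) and RRP12 at -0.54 (adjusted p = 0.0707, SE 0.12) came after WDR43 in that order and were likewise singled out afterwards. RRP12 was at 262, 223, 178 and 156 CPM and PDCD11 at 163, 169, 123 and 109.9 CPM, so that CT and U were apart in each.

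The change in polysome association with the label, the polysome difference minus the input difference, was called for no member and for 0% of all genes tested. At an unadjusted p under 0.05 there were 3 members, UTP3, WDR43 and DHX37, and 6.34% of all genes. DESeq2 called 0 members and 0.0606% of all genes. The median was -0.02, against -0.08 over all genes tested, and its sign turned under other scalings. UTP3 was highest at 0.81 (adjusted p = 0.76, SE 0.24), followed by UTP14A at 0.55 (SE 0.28) and WDR75 at 0.51 (SE 0.26). UTP14A was at 31.7, 30.2, 29.2 and 23.0 CPM in input and 27.7, 28.4, 29.4 and 40.1 CPM on polysomes, so that both U values were below CT in input and above it on polysomes. PWP2 at -1.02 (SE 0.99), ESF1 at -0.93 (SE 0.45) and WDR43 at -0.89 (adjusted p = 0.767, SE 0.29) were lowest. In ESF1, polysome CT 2 was over 2 times each other polysome value.

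Title numbers, which FBL followed, were compared in the same way over both labels. In input, number 2 against number 1 called no member, and none reached an unadjusted p under 0.05, against 1.94% of all genes. DESeq2 called 0 members and 0.121% of all genes, and edgeR called 0.0121% of all genes, that is 2. The median log2 fold change was -0.11, against -0.01 over all genes tested. Of the members' estimates, 40 of 46 were below 0, against 8378 of 16503 genes. Here too the signs come from shared libraries and are not independent. Without input U 2 the members' median was 0.01. In 18 members (39.1%) both number 2 libraries lay under both number 1 libraries, and in 0 above, where all genes gave 18.2% and 17.3%. The lowest estimates were those of PWP2 at -0.63 (SE 0.70), UTP15 at -0.42 (SE 0.30) and NOB1 at -0.39 (SE 0.18). NOB1 was at 62.2, 48.6, 57.5 and 42.5 CPM, with both number 2 values lowest, and PWP2 at 6.44, 3.73, 5.34 and 3.90 CPM in the same pattern. The highest were TBL3 at 0.15 (SE 0.15), UTP18 at 0.13 (SE 0.18) and KRI1 at 0.06 (SE 0.17). KRI1, the partner of KRR1, was at 52.0, 59.4, 50.8 and 47.9 CPM and UTP18 at 42.3, 49.0, 39.4 and 40.2 CPM, with the numbers overlapping in both.

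On polysomes the numbers called no member, 2 reached an unadjusted p under 0.05, against 9.05% of all genes, and DESeq2 called 0, against 1.44%. By edgeR, 0.0182% of all genes were called, 0.00606% higher and 0.0121% lower. The median was -0.04, against -0.01 over all genes tested, and 0.02 without polysome CT 1. BMS1, at 58.5, 82.5, 60.7 and 85.5 CPM, was higher in both number 2 libraries, with 0.50 (adjusted p = 0.427, SE 0.16). PNO1, at 21.7, 10.2, 15.6 and 11.8 CPM, was lower in both, with -0.76 (adjusted p = 0.445, SE 0.25). High estimates were those of ESF1 at 0.77 (SE 0.36) and MPHOSPH10 at 0.38 (SE 0.20), and low ones those of PWP2 at -0.97 (SE 0.70) and RCL1 at -0.61 (SE 0.31). MPHOSPH10 was at 40.8, 39.9, 29.7 and 51.9 CPM and RCL1 at 38.8, 28.6, 27.6 and 14.9 CPM, and the numbers overlapped in both. The 3 members with both number 2 values above were BMS1, UTP23 and UTP4, 6.52% against 14.0% of all genes tested. There were 9 (19.6%) with both below, against 15.7%.

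The change in polysome association with the number was called for no member and 0% of all genes. At an unadjusted p under 0.05 there was 1 member, MPHOSPH10, and 3.38% of all genes. DESeq2 called 0 members, against 0.0606% of all genes. The estimates were highest for ESF1 at 1.06 (SE 0.50), MPHOSPH10 at 0.68 (SE 0.28) and UTP15 at 0.50 (SE 0.43). They were lowest for RCL1 at -0.66 (SE 0.44), PNO1 at -0.41 (SE 0.35) and UTP18 at -0.35 (SE 0.26). In input, MPHOSPH10 was at 79.5, 66.1, 78.5 and 62.1 CPM, RCL1 at 23.9, 27.1, 21.8 and 20.4 CPM, PNO1 at 19.6, 17.6, 21.0 and 14.4 CPM and BMS1 at 81.8, 85.6, 73.1 and 70.8 CPM. On polysomes UTP15 was at 14.7, 11.4, 9.22 and 14.0 CPM and UTP18 at 67.5, 50.7, 52.5 and 52.0 CPM. The median over members was 0.06, against -0.03 over all genes tested, and turned negative without polysome CT 2, polysome U 1, input CT 1 or input U 2. These 7 comparisons share libraries and are not independent of each other.

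The promoters of the members, 300-base windows from RefSeq on GRCh38.p14 of which 40 matched a member, were searched on both strands for 4 motifs. CACGTG, the E-box bound by MYC among others, was present in 18 (45%), against 7.435% of 27305 promoters. CCGGAAG, the core of ETS-family sites, was present in 16 (40%), against 10.668%. The palindromic core of NRF1 sites was present in 3 (7.5%), against 1.359%. TATAAA was present in 3 (7.5%), against 11.954%. Of the 10 members named in the polysome comparison for the highest and lowest values, RRP9, DHX37 and LTV1 each held both CACGTG and CCGGAAG. These are matches of letters in a window, given as a description.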

How the data were processed

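Polysome and input RNA of OCI-AML3 cells were sequenced in 8 libraries, 2 in each of 4 groups named from titles and genotype labels. The deposited values are raw read counts per gene; per the submitters' processing notes the authors used Trimmomatic 0.38, Bowtie2, HTSeq 0.11.2 and GRCh38. Annotation release, sequencing layout and strandedness: not given in the sources used here. Without strand, reads of overlapping genes cannot be told apart, and Bowtie2 aligns without splicing, so pseudogenes may take some reads. Of the members, 26 have exons overlapping another gene, 12 of them over 10% of exon bases, and 4 have a named pseudogene. Overlaps were added over the other genes, so bases shared with several genes count repeatedly. Lines naming no gene (13.2% to 15.0% of reads) stayed out. Replicates differed by a chi-square of 23.6 to 51.3 per degree of freedom.

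Counts were analysed with edgeR 4.0.16 in R 4.3.3 (TMM, filterByExpr, quasi-likelihood F test, Benjamini-Hochberg over 16503 genes, threshold 0.05), fitted by fraction and label and, separately, by fraction and number, each with 4 residual degrees of freedom. Fits were tested on simulated data. Positions and coding regions came from GENCODE v29. Per the protocol in the labels, input and polysome RNA of a title number came from the same lysate; their deviations from group means correlated at 0.162 in CT and 0.165 in U. Alternatives were other scalings, filters, DESeq2 1.42.0, blocks, single fractions, each library left out, and offsets for GC content and length, the last added after the data were seen. The members and lists were chosen with earlier results of these data known. Named in each comparison are up to 8 called members, otherwise the 5 highest and 5 lowest called, or the 3 highest and 3 lowest where fewer than 3 were called, plus the extremes per exon length.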

Additional observations from a re-analysis of the deposited data

How the results depend on the processing

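For polysome against input, the count of 27 members stayed between 22 and 29 over every scaling, filter, tool, block and left-out library, and the 10 members named there kept direction and call in all 140 values computed under those settings. WDR75 lost its call with relative log expression and UTP18 at a mean of at least 10 CPM. With offsets for GC content and length, ESF1 turned from -1.02 to 0.0368, and to -0.0172 with the lysate block as well, and UTP23 fell to -0.176 (adjusted p = 0.439); all genes gave 4512 calls, 2165 higher and 2347 lower, in place of 7072. For polysome U against CT, where 0 members were called, no filter gave 9, a mean of at least 10 CPM 3, DESeq2 7, and the fit with the replicate number as a block 3 (RRP12, PDCD11 and DHX37, all lower); leaving out single libraries gave 0 to 9. Over all genes, the 145 calls became 1117, 326, 1203 and 551 under the same settings in that order, 90 in polysome libraries alone, 0 with GC and length offsets and 286 with these and the block; leaving out single libraries gave 0 to 1322. For input U against CT, DESeq2 called 1 member; over all genes, 0 became 83 without a filter, 76 with DESeq2 and 7 in input libraries alone. The same-number libraries of CT and U correlated at 0.24 in input and 0.0949 on polysomes. Input and polysome RNA of the same lysate correlated at only 0.162 in CT and 0.165 in U. These values therefore cannot decide whether the numbers pair CT with U. No label says that they do, and the main fits of U against CT had no block for the number. The median over members of the change in polysome association with the label, -0.021, was 0.0469 with relative log expression, 0.0497 with upper quartile scaling, 0.0716 without a filter, 0.0913 at a mean of at least 10 CPM, 0.0463 with DESeq2 and 0.054 with GC and length offsets, and ran from -0.0672 to 0.166 when single libraries were left out. With single libraries left out, the number comparisons' medians ran from -0.21 to 0.00647 in input, from -0.183 to 0.0238 on polysomes and from -0.0698 to 0.194 for the change between them, and 0 members were called in all 44 recomputed values. The cause of these shifts was not tested. The lowest count of any member in any library was 87 reads, for KRR1, whose polysome values had a coefficient of variation of 47.4%.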
